A study of Mus musculus with 8 samples.

Results

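The respiratory chain genes examined here are the nuclear genes whose symbols start with Nduf, Uqcr, Cox followed by 4 to 8, or Atp5, together with Sdha, Sdhb, Sdhc and Sdhd. By this rule on symbols, 90 of the 18193 genes that have a probe set of their own on the array were members. The brightest probe set of each gene, by its mean over all 8 arrays, was used. They comprised 36 genes listed under complex I as subunits, 8 complex I assembly factors, 4 genes of complex II, 8 of complex III, 17 of complex IV and 17 of complex V. The rule takes symbols as they stand: Ndufa4, now placed with complex IV, and its paralogue Ndufa4l2 count under complex I, and the supercomplex factor Cox7a2l counts under complex IV.

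The respiratory chain sits in the inner membrane of mitochondria. Complex I takes electrons from NADH and complex II takes them from succinate, complex III passes them to cytochrome c, and complex IV hands them to oxygen. Complexes I, III and IV pump protons as they do so, and complex V, the ATP synthase, makes ATP from the returning flow. Most subunits are encoded in the nucleus, and heart, skeletal muscle and brown fat carry muscle-type isoforms of a few complex IV subunits beside the general ones.

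Transcripts were measured in dorsal skin of mouse embryos at E18.5 (embryonic day 18.5) on single-colour Affymetrix Mouse Genome 430 2.0 arrays, where a set of short oligonucleotide probes reads 1 transcript. The GR-null group held 4 arrays (label numbers 5, 17, 25 and 26) from GR-/- embryos, which lack the glucocorticoid receptor, a transcription factor switched on by glucocorticoid hormones and encoded by Nr3c1. The wild-type group held 4 arrays (4, 6, 28 and 29) from GR+/+ embryos. All were of the strain B6D2/F1, were described as littermates and were taken by caesarean section. The labels name no agent, do not describe the null allele and give no cell-type-specific deletion. They do not say that each array came from a separate embryo, so the p-values measure only the spread between these samples. Dorsal skin holds many cell types, and in such bulk samples fewer cells of a type and less RNA per cell cannot be told apart.

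Nr3c1 itself was lower past the threshold at 3 of its 6 probe sets. Of all 18193 genes, 2.96% were called, 1.4% higher and 1.56% lower in GR-null skin (limma, Benjamini-Hochberg adjusted p below 0.05). GR-null 17 stood apart from the other GR-null arrays in the list of 39 skeletal muscle markers. The mean of that list was 9.78, 10.11 and 9.97 log2 in GR-null 5, 25 and 26, but 10.82 in GR-null 17. The wild-type arrays lay between 10.69 and 10.83. Of the 39 muscle markers 5 were lower past the threshold and none higher. The members are therefore given with and without GR-null 17 where a result rests on it, and the part of muscle tissue in their values was not tested beyond a fit with the muscle mean as a covariate.

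The bases before the transcription start of 8 members that differ in the motifs they carry are shown. Sdha, Sdhb and Sdhd are of complex II. Ndufb7 is the complex I gene with the largest negative difference and Atp5g2 the complex V gene with the largest positive one. Cox6a1, a general isoform, and Cox7a1 and Cox8b, muscle isoforms, are of complex IV. The sequences are from RefSeq (GRCm38.p6), with 150 bases ending at the base before the start, written 5′ to 3′ along the gene. NRF1 and GABPA, a factor of the ETS family, are known activators of respiratory chain genes. Capitals mark matches, on either strand, to the palindrome-like NRF1 motif of 10 letters or to the ETS motif CCGGAAG.
Sdha (chr13:74350241-74350390, reverse strand): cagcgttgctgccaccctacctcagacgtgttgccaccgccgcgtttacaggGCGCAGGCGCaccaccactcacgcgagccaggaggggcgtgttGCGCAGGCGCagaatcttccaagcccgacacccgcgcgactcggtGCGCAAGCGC
Sdhb (chr4:140961121-140961270, forward strand): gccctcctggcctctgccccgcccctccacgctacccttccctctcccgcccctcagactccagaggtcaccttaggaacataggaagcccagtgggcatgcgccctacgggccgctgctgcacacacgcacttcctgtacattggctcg
Sdhd (chr9:50603850-50603999, reverse strand): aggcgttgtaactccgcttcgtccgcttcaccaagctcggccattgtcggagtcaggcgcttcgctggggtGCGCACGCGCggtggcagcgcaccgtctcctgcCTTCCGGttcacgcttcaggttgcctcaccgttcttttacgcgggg
Ndufb7 (chr8:83566608-83566757, forward strand): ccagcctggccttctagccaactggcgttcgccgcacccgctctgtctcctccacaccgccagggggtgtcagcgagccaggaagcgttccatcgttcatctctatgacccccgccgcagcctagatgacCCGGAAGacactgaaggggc
Atp5g2 (chr15:102671048-102671197, reverse strand): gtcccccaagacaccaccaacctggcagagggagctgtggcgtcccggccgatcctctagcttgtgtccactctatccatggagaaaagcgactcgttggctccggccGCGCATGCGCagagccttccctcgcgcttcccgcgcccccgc
Cox6a1 (chr5:115348959-115349108, reverse strand): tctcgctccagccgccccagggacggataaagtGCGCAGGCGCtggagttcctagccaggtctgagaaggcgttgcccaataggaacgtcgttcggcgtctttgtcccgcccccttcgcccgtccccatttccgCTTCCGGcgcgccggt
Cox7a1 (chr7:30184021-30184170, forward strand): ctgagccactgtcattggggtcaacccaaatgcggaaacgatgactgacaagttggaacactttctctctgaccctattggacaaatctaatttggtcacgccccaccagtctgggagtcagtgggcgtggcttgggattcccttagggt
Cox8b (chr7:140900447-140900596, reverse strand): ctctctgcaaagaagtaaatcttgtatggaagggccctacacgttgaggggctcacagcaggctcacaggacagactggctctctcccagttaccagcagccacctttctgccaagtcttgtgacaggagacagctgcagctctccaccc

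Sdha held 3 NRF1 matches within these bases, at 98 to 89, 55 to 46 and 10 to 1 bases before the start. Sdhd held an NRF1 match and an ETS match, Cox6a1 held both, Ndufb7 held an ETS match and Atp5g2 an NRF1 match. No capitals appear in Sdhb, whose ETS match lay after the start, nor in the muscle isoform genes Cox7a1 and Cox8b. Of their general partners, which are not printed, Cox7a2 held no match and Cox8a held ETS matches only across or after the start. Cox6a1 therefore does not stand for the general isoforms. Of the 90 members, 74 had a promoter in the RefSeq table, with 79 promoters between them. Sdhc and Cox6a2 were among the members without one. In windows of 300 bases, from 250 before to 50 after the start, 22.8% of the member promoters held the NRF1 motif, against 4.6% of all 32851 promoters. The ETS motif was in 24.1% of member promoters and 8.86% of all. The YY1 motif AANATGGCG was in 12.7% and 2.38%, and the ERR motif TCAAGGTCA in 2.53% and 0.423%. Complex II had an NRF1 match in 2 of its 3 promoters and complex V in 6 of 18, while complex IV had one in 1 of 12. The motif of MEF2, a muscle factor, was in 0 of the 79 and in 0.164% of all promoters. The core of the glucocorticoid response element, ACANNNTGT, was also in 0 of the 79 and in 6.85% of all. All motifs were searched on both strands, overlapping matches counted once per promoter, and no spelled motif contains another. Mean GC content was 58.1 ± 5.98% (SD, n = 79) in member promoters and 53.8 ± 11.3% (SD, n = 32851) in all, and a match is a property of the letters only.

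Of the 90 members 1 passed the threshold. Sdhc was called higher in GR-null skin, none was called lower, and 89 did not pass the threshold. At an unadjusted limma p below 0.05, 10 members were higher and 6 lower, where 10.5% and 11.1% of all genes were. The log2 fold changes, GR-null minus wild-type, ran from -0.57 to 0.46 with a median of -0.03, against a median of -0.0045 over all genes. In all, 40 members read higher and 50 lower, and the size of the log2 difference exceeded 0.5 in 2 members. All 4 GR-null values lay above all wild-type values for 8 members, where 6.69% of all genes showed this, and below them for 2 members, where 6.3% did. These counts show nothing that sets the members apart from all genes. A further 15 members had GR-null 5, 25 and 26 below every wild-type array with GR-null 17 inside the wild-type range, a pattern found in 5.3% of all genes. Of these 15 members, 13 were read at probe sets named _a_at, _s_at or _x_at, whose probes can bind several transcripts and which read 51 of the members. The other 2 were read at plain _at sets, designed to be unique, which read 39. Among all genes with a mean of 10 log2 or more, 128 of 1101 read at the former kinds and 102 of 1466 read at _at sets showed it. The share in the members was not tested against these. GR-null 17 was the highest GR-null array for 51 of the 90 members, and GR-null 5 the lowest for 36.

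**Figure D1:**
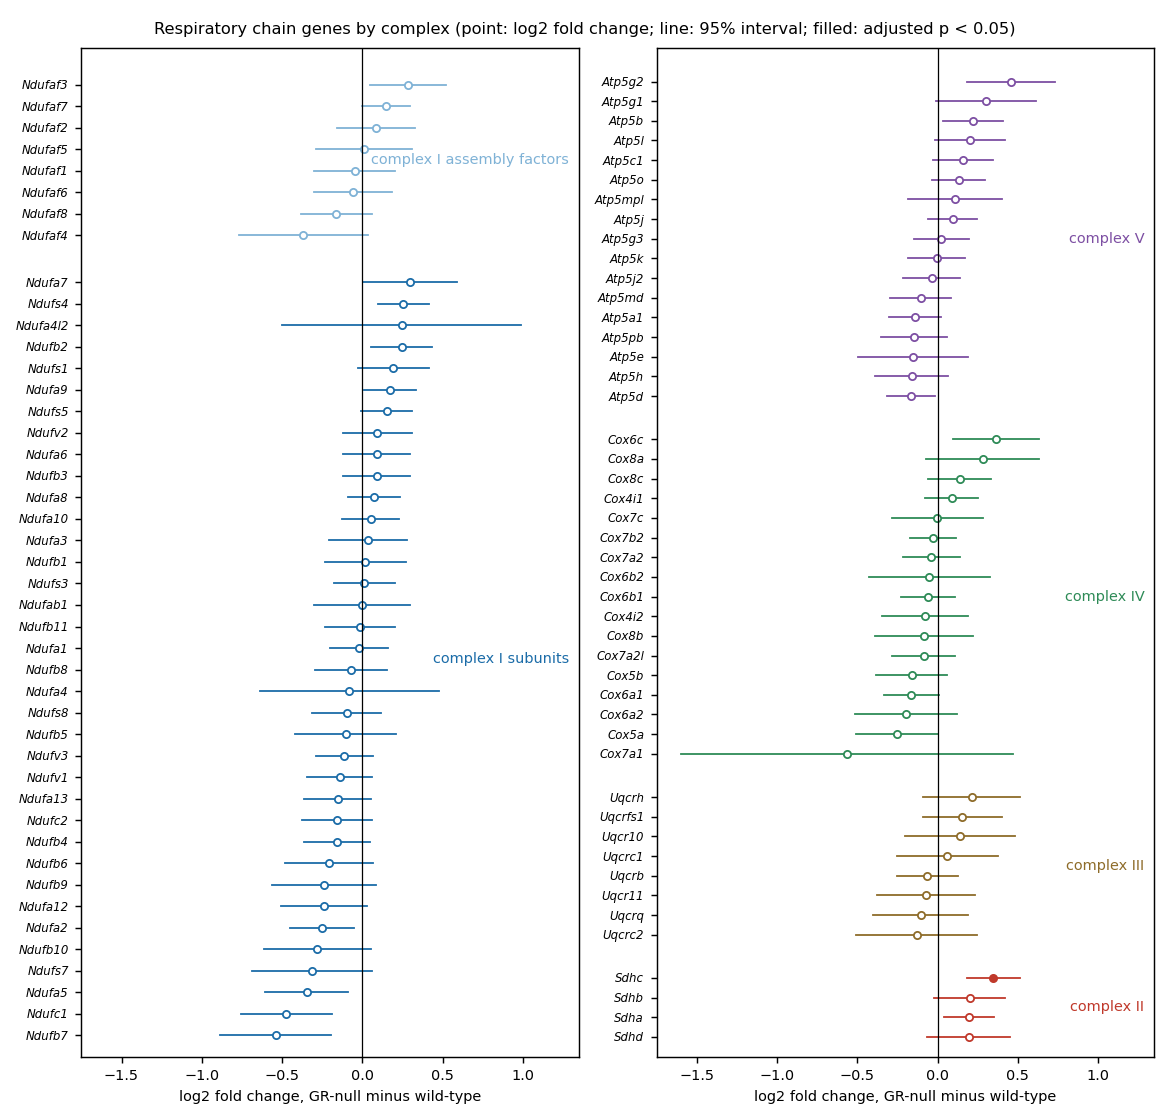
Log2 fold change (GR-null minus wild-type, x axis) of the 90 respiratory chain genes, grouped by complex. Points are estimates from 4 against 4 arrays and lines their 95% intervals. The single filled point, past the adjusted threshold, is Sdhc at 0.35, and the 4 complex II genes lie to the right of 0.

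Complex II, succinate dehydrogenase, was the group whose members all read higher in GR-null skin, with a median log2 difference of 0.20 over its 4 genes. Sdhc encodes a membrane anchor subunit of the enzyme. Its log2 values were 11.03, 10.91, 10.87 and 10.90 in wild-type 4, 6, 28 and 29, against 11.22, 11.22, 11.29 and 11.37 in GR-null 5, 17, 25 and 26. Every GR-null array lay above every wild-type array, and GR-null 17 lay with its group. Sdhc rose by 0.35 ± 0.07 log2 (SE), which is 1.27-fold, with an adjusted p of 0.0431 in limma. Its other probe set gave 0.34 with an adjusted p of 0.0414 over all probe sets. Over 16 alternative settings the difference stayed between 0.31 and 0.38, and the adjusted p ran from 0.0166 to 0.272. The call held in 5 of the 16 settings. It was lost when any array other than GR-null 17 was left out (adjusted p 0.0579 to 0.135), with a further quantile normalization (0.0595), with median centring (0.0507), without dim probe sets (0.0508) and with the muscle mean as a covariate (0.272). With that covariate the Sdhc difference was still 0.31 log2, but its SE was 0.11, and calls over all genes went from 539 to 121.

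Sdha encodes the flavoprotein that oxidises succinate. It read 11.43, 11.41, 11.30 and 11.33 in the wild-type arrays and 11.51, 11.62, 11.60 and 11.53 in the GR-null arrays. The groups did not overlap, but the difference of 0.20 ± 0.07 log2 (SE) did not pass the threshold (limma adjusted p = 0.149). The promoter of this gene is the one shown above with 3 NRF1 matches. A second Sdha probe set, named with the ending _s_at, read the other way, at -0.36 with an adjusted p of 0.0921 over all probe sets.

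Sdhb, the iron-sulfur subunit, read 11.16, 11.32, 11.09 and 11.24 in wild-type and 11.28, 11.42, 11.28 and 11.62 in GR-null skin. The groups overlapped, and the difference was 0.20 ± 0.10 log2 (SE; limma adjusted p = 0.284). Sdhd, the other membrane anchor, read 10.48, 10.80, 10.36 and 10.69 against 10.67, 10.66, 10.86 and 10.91. The difference was 0.19 ± 0.11 log2 (SE; limma adjusted p = 0.374), and a second probe set of Sdhd gave -0.24. With the mean of all probe sets of each gene, Sdha read -0.08 and Sdhd -0.02, and the complex II median was 0.09.

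**Figure D2:**
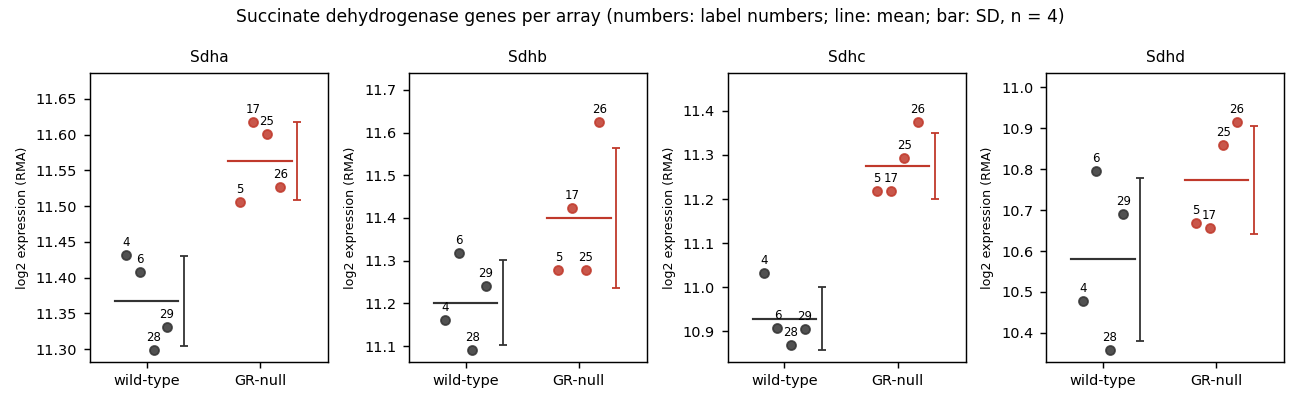
Log2 expression (y axis, RMA scale) of the 4 succinate dehydrogenase genes on each array, with label numbers, the group mean (line) and SD (bar, n = 4). In Sdha and Sdhc the GR-null arrays all lie above the wild-type arrays. In Sdhb and Sdhd the groups overlap.

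No complex I subunit gene passed the threshold in either direction at the probe sets used. Of the 36 genes 15 read higher and 21 lower, with a median log2 difference of -0.05. This rested on the sets chosen: with _at sets alone, 20 of 29 read higher and 9 lower. In that setting Ndufb5 was called higher, where 449 of all 16591 genes were called in either direction. Its _at set gave 0.38 log2 (limma adjusted p = 0.0364 over all probe sets), against -0.10 at the _a_at set used. The largest differences were in accessory subunits, which surround the catalytic core without carrying electrons. Ndufb7, in the membrane arm, read 11.88, 11.94, 11.97 and 12.02 in wild-type 4, 6, 28 and 29, against 11.32, 11.92, 11.19 and 11.21 in GR-null 5, 17, 25 and 26. GR-null 5, 25 and 26 lay below every wild-type array, and GR-null 17 lay within the wild-type range. The difference was -0.54 ± 0.15 log2 (SE; limma adjusted p = 0.0881), and without GR-null 17 it was -0.71 (adjusted p = 0.00351).

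Ndufc1, also of the membrane arm, read 11.80, 11.95, 11.93 and 11.87 in wild-type and 11.46, 11.74, 11.34 and 11.12 in GR-null skin. All GR-null arrays lay below all wild-type arrays, with GR-null 17 closest to them. The difference was -0.47 ± 0.13 log2 (SE; limma adjusted p = 0.0752). Ndufa5, of the peripheral arm, read 11.5, 11.36, 11.61 and 11.57 against 11.08, 11.49, 11.05 and 11.05. Again GR-null 17 lay with the wild-type arrays, and the difference was -0.35 ± 0.12 log2 (SE; limma adjusted p = 0.131). Ndufab1, the mitochondrial acyl carrier protein, had the smallest difference of the group, at -0.0038 log2. Of the 3 members at or below the median level of all probe sets, Ndufb4 is in this group. It was read at only 4.15 to 4.54 log2, so its lack of a call says little.

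Without GR-null 17, 7 members passed the threshold, where 3.8% of all genes were called higher and 5.21% lower in that fit. Ndufb7, Ndufc1 (-0.58, adjusted p = 0.0132), Ndufa5 (-0.45, 0.0172), Ndufb10 (-0.43, 0.0281) and Ndufa2 (-0.32, 0.0345) were lower. All 5 were listed under complex I, and all 5 were read at _a_at or _s_at sets. Ndufa5 read 0.06 log2, the other way, at its _at set over all arrays, and the _at sets of Ndufb7 and Ndufc1 read -0.30 and -0.15. Sdhc (adjusted p = 0.0294) and Ndufa4l2 (0.62, 0.0286) were higher. Counts of 5 and 2 among 90 are close to the shares over all genes. Ndufa4l2 is a paralogue known to be induced under low oxygen. It read 10.57, 10.94, 10.77 and 10.86 in wild-type and 11.14, 9.90, 11.61 and 11.48 in GR-null 5, 17, 25 and 26. GR-null 17 was thus the lowest of all 8 arrays and the other GR-null arrays the highest, and over all arrays the difference was 0.25 ± 0.33 log2 (SE; limma adjusted p = 0.737). Ndufa2, Ndufb10 and Ndufa4l2 were picked out after their values were seen. With array quality weights 4 members were called higher (Sdhc, Ndufs4, Cox6c and Atp5g2) and 5 lower (Ndufa2, Ndufa5, Ndufb7, Ndufc1 and Cox5a), where 4.85% and 5.84% of all genes were. With the muscle mean as a covariate no member passed the threshold, 57 of the 90 read higher, and 0.39% of all genes were called higher and 0.275% lower.

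**Figure D3:**
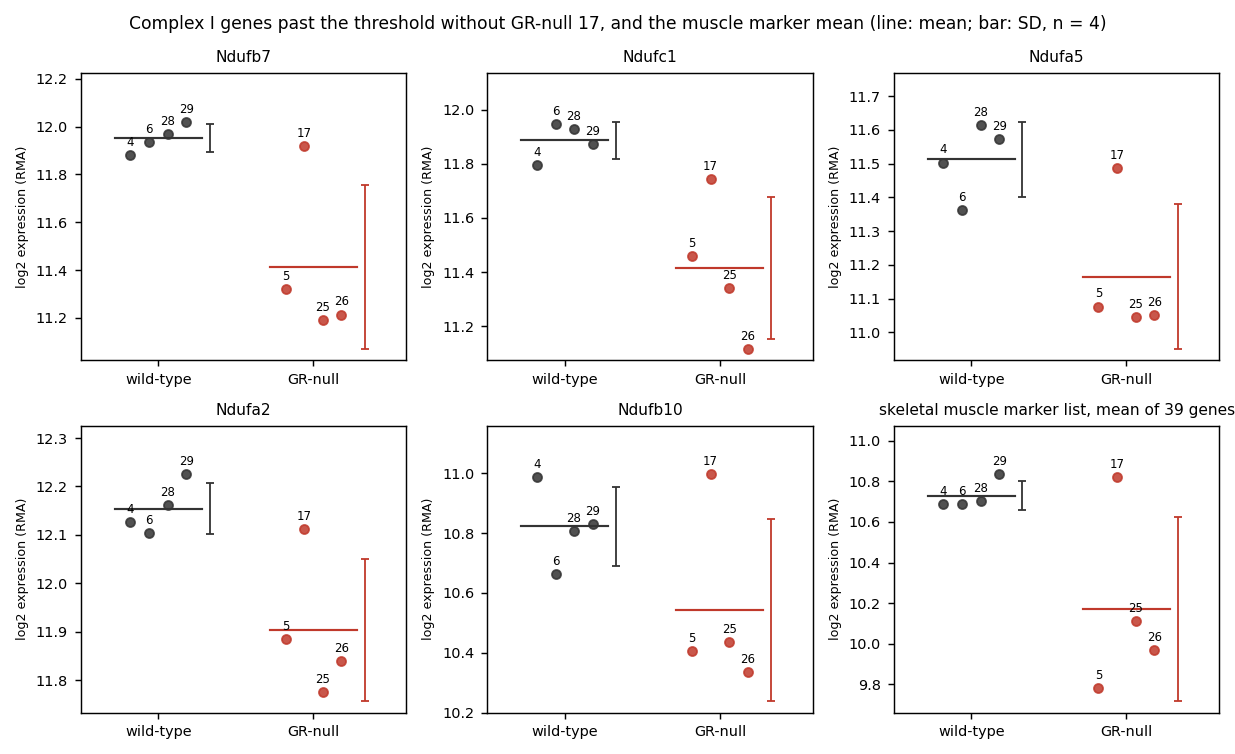
Log2 expression (y axis) of the 5 complex I genes called lower without GR-null 17, and the mean of the 39 skeletal muscle markers, per array with group mean (line) and SD (bar, n = 4). GR-null 17 lies in or next to the wild-type values in each panel, at 11.92 for Ndufb7 and 10.82 for the muscle mean. The genes were picked by their fit without GR-null 17, which favours this position.

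Among the 8 complex I assembly factors, which build the complex and are not part of it, 4 read higher and 4 lower, with a median log2 difference of -0.02 and none past the threshold. Ndufaf4 and Ndufaf3 act as a pair in early assembly. Ndufaf4 read 10.08, 9.71, 9.88 and 9.61 in wild-type and 9.53, 9.91, 9.10 and 9.27 in GR-null skin, a difference of -0.37 ± 0.18 log2 (SE; limma adjusted p = 0.271). Ndufaf3 read 8.46, 8.72, 8.35 and 8.35 against 8.71, 8.69, 8.69 and 8.93, a difference of 0.29 ± 0.11 log2 (SE; limma adjusted p = 0.161). The members of this pair therefore read in opposite directions, with overlapping groups for each. Ndufaf8 differed by -0.16 ± 0.10 log2 (SE) and its partner Ndufaf5, the smallest difference here, by 0.0087.

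In complex III, 4 of 8 genes read higher and 4 lower with a median of -0.0028, and none passed the threshold. Uqcrh, the hinge protein, read 11.83, 12.40, 11.95 and 12.13 in wild-type and 12.11, 12.22, 12.44 and 12.40 in GR-null skin. The groups overlapped, and the difference was 0.21 ± 0.13 log2 (SE; limma adjusted p = 0.412). Uqcrfs1, the Rieske iron-sulfur protein, differed by 0.15 ± 0.11 and the small subunit Uqcr10 by 0.14 ± 0.15 log2 (SE). Uqcrc1, a core protein, had the smallest of the named differences at 0.06 ± 0.14 log2 (SE), and no complex III gene had groups free of overlap.

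In complex IV, cytochrome c oxidase, 4 of 17 genes read higher and 13 lower, with a median of -0.06 and none past the threshold. The 14 genes other than the muscle isoforms had a median of -0.05. Cox6c, a small accessory subunit, read 12.51, 12.87, 12.51 and 12.48 in wild-type and 12.84, 12.79, 13.04 and 13.15 in GR-null skin. Wild-type 6 lay among the GR-null arrays and the other wild-type arrays lay below them. The difference was 0.36 ± 0.12 log2 (SE; limma adjusted p = 0.124), while its _a_at set read the other way, at -0.09. Cox7c showed the smallest difference, at -0.0028, but it was read at a probe set of only 7.14 to 7.67 log2. Genes of tissue-restricted forms, Cox4i2, Cox6b2, Cox7b2 and Cox8c, were also without a call. Cox7b2 read only 3.73 to 3.84 log2 and Cox4i2 6.09 to 6.63, so the lack of a call there says little.

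The muscle isoforms Cox6a2, Cox7a1 and Cox8b replace Cox6a1, Cox7a2 and Cox8a in contractile tissue. Cox6a2 read 10.16, 10.41, 10.29 and 10.43 in wild-type 4, 6, 28 and 29, against 9.85, 10.51, 10.14 and 9.99 in GR-null 5, 17, 25 and 26. GR-null 17 was the highest of all arrays and the other GR-null arrays were the lowest. The difference was -0.20 ± 0.14 log2 (SE; limma adjusted p = 0.468), and without GR-null 17 it was -0.33 (adjusted p = 0.0891). A second probe set, an _x_at set, gave -0.60 with a limma adjusted p of 0.0875 over all probe sets. The general Cox6a1 differed by -0.16 ± 0.08 log2 (SE; limma adjusted p = 0.244). Its second probe set, an _s_at set, read the other way, at 0.42 with a limma adjusted p of 0.297 over all probe sets.

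Cox7a1 read 8.64, 6.72, 6.70 and 7.0 in wild-type and 6.52, 7.62, 6.32 and 6.33 in GR-null skin. Wild-type 4 and GR-null 17 stood above the rest, whatever their genotype. The difference was -0.57 ± 0.46 log2 (SE; limma adjusted p = 0.536), the largest in size of all members and the least precise. It was -0.11 without wild-type 4 and -0.87 without GR-null 17, so its size rested on single arrays. The mean of 8 general adipocyte markers was also highest in these arrays, at 9.80 in wild-type 4 and 9.61 in GR-null 17, with 7.92 to 9.26 in the others. The mean of 10 brown adipocyte markers was 6.75 in wild-type 4 and 6.08 in GR-null 17. The other 6 arrays spanned 5.83 to 6.38. None of either list passed the threshold, and their part in the Cox7a1 values was not tested. Cox8b differed by -0.08 ± 0.13 log2 (SE; limma adjusted p = 0.79), Cox7a2 by -0.04 ± 0.08 and Cox8a by 0.28 ± 0.16.

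Whether a muscle isoform differed from its general partner was tested on the within-array difference of the pair, with an exact two-sided permutation test over the 70 arrangements of 4 against 4 arrays, adjusted over the 3 pairs. The smallest p possible is 0.0286, and a lone pair at that value would have an adjusted p of 0.0857, so no pair could pass by itself. For Cox8b and Cox8a the change was -0.36 log2 (exact p = 0.114, adjusted 0.343), for Cox7a1 and Cox7a2 -0.53 (exact p = 0.429, adjusted 0.643), and for Cox6a2 and Cox6a1 -0.04 (exact p = 0.743, adjusted 0.743). No pair passed the threshold, which says nothing about whether the isoforms differ. All 3 muscle isoforms were read at _at sets and their partners at _a_at or _x_at sets. These kinds also read apart within single genes, as given below. In 30 of 36 members with both kinds the _at set had the higher fold change, whereas all 3 pair changes were negative. The part of that gap in the pair changes was not tested. At its _at set Cox7a2 read 0.20 log2, against -0.04 at the set used, and Cox8a read 0.30, against 0.28. Cox6a1 had no _at set, and Cox6a2 read -0.60 at its _x_at set, against -0.20 at the set used. The Cox7a1 pair was at -0.05 without wild-type 4 and at -0.79 without GR-null 17. The sign of the Cox6a2 pair turned when wild-type 6, GR-null 5 or GR-null 26 was left out.

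**Figure D4:**
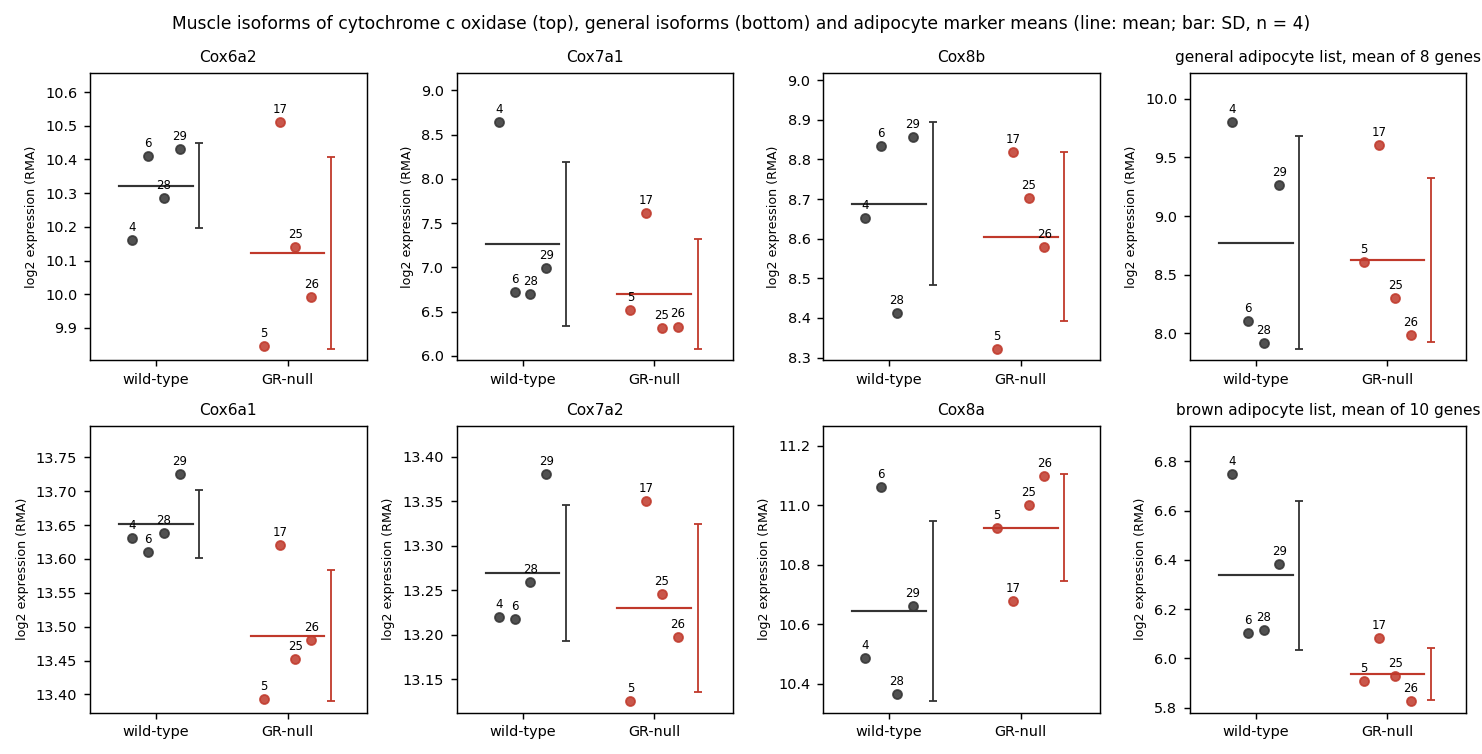
Log2 expression (y axis) of the muscle isoforms of complex IV (top) and their general partners (bottom), with the means of the general and brown adipocyte lists, per array with group mean (line) and SD (bar, n = 4). For Cox7a1, wild-type 4 at 8.64 and GR-null 17 at 7.62 lie above the other 6 arrays.

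In complex V, 9 of 17 genes read higher and 8 lower, with a median of 0.02 and none past the threshold. Atp5g1 and Atp5g2 are separate genes for the same ring-forming c subunit, differing in the part that targets it to mitochondria. Atp5g2 read 11.43, 11.88, 11.36 and 11.62 in wild-type and 11.98, 11.90, 12.13 and 12.11 in GR-null skin. Every GR-null array lay above every wild-type array, though GR-null 17 only just above wild-type 6. The difference of 0.46 ± 0.12 log2 (SE) was the largest positive one of the members and did not pass (limma adjusted p = 0.0752). It was past the threshold when wild-type 6 was left out. Atp5g1 differed by 0.30 ± 0.14 log2 (SE; limma adjusted p = 0.248) with overlapping groups. Atp5b, the catalytic beta subunit, differed by 0.22 ± 0.08 (SE; 0.163), and Atp5k, a subunit of the membrane part, by -0.0049.

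The direction in which a member read went with the kind of probe set, which was noticed after the values were seen. Affymetrix names ending in plain _at mark sets designed to be unique, while _a_at marks sets shared by transcripts of a gene, _s_at sets shared by several transcripts, and _x_at sets with probes that may bind others. Of the 39 members read at an _at set 25 read higher, with a median of 0.09, and of the 51 read at the other kinds 36 read lower, with a median of -0.10. Within complex I the subunit genes read at _at sets had a median of 0.09 (11 of 13 higher) and those read at other kinds -0.14 (19 of 23 lower). Ndufs4, an accessory subunit of the peripheral arm, shows this within 1 gene. It had the largest gap between the kinds, 0.85 log2, of the 36 members compared below. Its _at set read 10.28, 10.42, 10.24 and 10.26 in wild-type and 10.56, 10.51, 10.60 and 10.56 in GR-null skin, and its _x_at set read 8.17, 8.05, 8.44 and 8.20 against 7.48, 7.91, 7.54 and 7.56. The groups did not overlap at either set, in opposite directions: 0.26 ± 0.07 log2 (SE; limma adjusted p = 0.0814) and -0.59 ± 0.12 log2 (SE; adjusted p over all probe sets 0.0349).

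Of the 36 members with a set of each kind above the median level, 30 (83.3%) had the higher fold change at the _at set, with a median gap of 0.32 log2, and in 21 of them the _at set read higher and the other lower. Over all 2396 genes with such a pair, the share was 58.7% and the median gap 0.09. Among 338 genes with both sets at 10 log2 or more it was 80.5% with a gap of 0.22, and among the 24 members at that level it was 95.8% with 0.34. The gap was therefore also seen in bright genes in general. Relative to the wild-type mean, the average gap of the 36 members was 0.23, 0.02, 0.30 and 0.38 in GR-null 5, 17, 25 and 26, and -0.06, 0.18, -0.10 and -0.02 in wild-type 4, 6, 28 and 29. GR-null 17 again lay within the wild-type values. No cause of this gap was tested, and the split by complex in the members shifts with the probe sets chosen: with _at sets alone, the median over 72 members was 0.08.

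**Figure D5:**
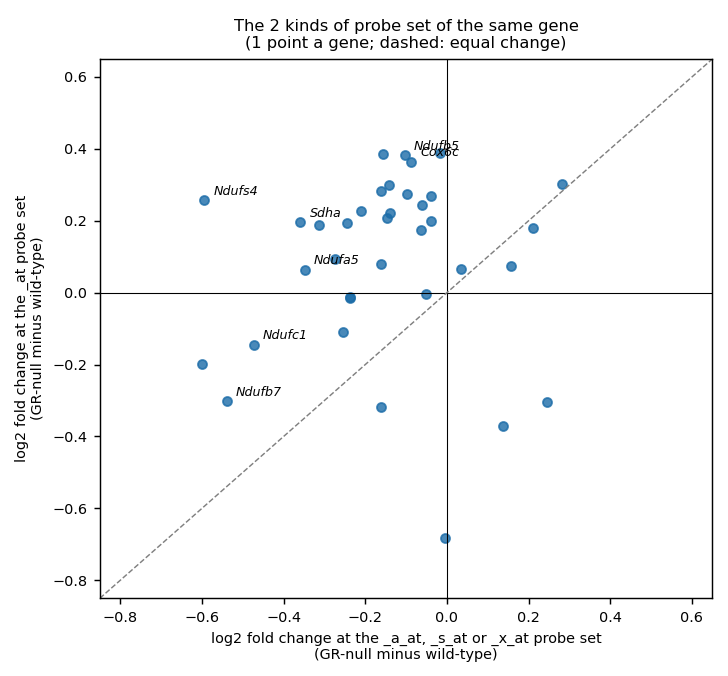
Log2 fold change (GR-null minus wild-type) of the same gene at its _at probe set (y axis) and at its _a_at, _s_at or _x_at set (x axis), 1 point for each of 36 members. Of these, 30 lie above the dashed line of equal change and 21 lie in the upper left, higher at the _at set and lower at the other.

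The genes around the members were mostly without a call as well. Of 39 assembly factors outside the symbol rule 22 read higher and 17 lower, none passed the threshold, and the median was 0.02. Those with the smallest p were Sdhaf2, which adds the flavin to Sdha (0.39 ± 0.09 log2, SE; limma adjusted p = 0.0623), Acad9 (0.45 ± 0.12; 0.0749) and Timmdc1 (-0.50 ± 0.14; 0.0797), the latter needed to assemble complex I. Of 21 regulators of mitochondrial biogenesis none passed. The smallest p among them were those of Pprc1, a coactivator of the PGC-1 family (-0.29 ± 0.08 log2, SE; limma adjusted p = 0.0812), Yy1 (0.23 ± 0.08; 0.155) and Polg (-0.24 ± 0.09; 0.186). Cyc1 and Cycs, cytochrome c1 and cytochrome c, were also not past the threshold, at 0.10 and -0.34 log2. The mitochondrially encoded complex I subunit gene ND5 was the only one measured of its kind and read 13.49, 13.23, 13.19 and 12.75 in wild-type and 13.50, 13.48, 13.68 and 13.42 in GR-null skin, a difference of 0.35 ± 0.15 log2 (SE; limma adjusted p = 0.202).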

How the data were processed

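The 8 arrays, 4 from GR-null and 4 from wild-type dorsal skin, were analysed from log2 expression values per probe set. These log2 values were deposited by the authors and, per the submitters' processing notes, made with RMA, which subtracts background, equalises the distributions across arrays and summarises the probes of a set. The RMA version and array definition were not given in the sources used here. Array medians were 6.46 to 6.52, so a shift shared by most genes cannot be seen, and the number of arrays limits the precision.

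Of 45101 probe sets, 64 control sets were left out. Differences, GR-null minus wild-type, were fitted with limma 3.58.1 (lmFit and eBayes, two-sided) in R 4.3.3 over 45037 probe sets. A gene was read at its brightest set among the 34945 that carry 1 symbol, and p was adjusted by Benjamini-Hochberg over 18193 genes with a threshold of 0.05. On simulated arrays with 200 of 18193 genes shifted, 45.1% of shifts of 0.5 log2 and 91.0% of shifts of 1 were recovered. The simulated noise was independent between genes, with no difference between arrays shared by many genes. Shifts below 0.5 log2, the size of most differences in the members, were not simulated. The 90 members had 179 probe sets, and 10 sets naming several genes were left out. Isoform pairs were tested by exact permutation. Promoters were from RefSeq, GRCm38.p6.

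The members, lists and settings were chosen with earlier results of these data known. Named genes were members past the threshold, the isoform pairs, and in each complex the 3 largest and the 1 smallest difference, plus up to 3 genes of smallest p per other list. Others are said to have been chosen after their values were seen, or are named in counts. The alternatives were a further quantile normalization, median centring, a filter on dim sets, an intensity trend with robust prior, array weights, the mean of all sets, leaving out _x_at and _s_at sets, a muscle covariate, and each array left out. Leaving out _a_at sets too was added after seeing the data.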

Additional observations from a re-analysis of the deposited data

Results flagged for a closer look

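Single arrays stood apart in 6 of 56 groups of 4 values looked at, where chance marks about 1 in 20. In Cox7a1, wild-type 4 lay far above the other wild-type arrays at 8.64 log2, and GR-null 17 far above the other GR-null arrays at 7.62. In Ndufa5, GR-null 17 lay far above its group at 11.49. In Ndufaf8, wild-type 6 lay below the other wild-type arrays at 10.11, and in Cox6c it lay above them at 12.87. In Ndufaf3, GR-null 26 lay above its group at 8.93. In each case the gap to the nearest array was, relative to the group's range, above Dixon's critical value for 4 samples.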

How the results depend on the processing

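No paired analysis was possible because the labels do not say which arrays share a litter and the groups share no replicate numbers. The p-values therefore take no account of litters. Of the results that answer a comparison, 78 of 93 values under settings other than left-out arrays, and 85 of 96 with an array left out, stayed within tolerance: 1 SD between replicates for a median, 1.5 times for a count, and sign and call for a pair. Medians near 0 changed sign within it: with an array left out, all members ran from -0.04 to 0.0062, complex I assembly factors from -0.085 to 0.069 and complex III from -0.02 to 0.067. The cause of the others was not tested. The count of members called higher was 0 with a further quantile normalization, with median centring, without dim probe sets and with the muscle covariate, and 4 with array weights, which called 5 lower (4.85% and 5.84% of all genes). With an array left out it ran from 0 to 2, and the count of lower members from 0 to 5. Over all genes 539 calls became 1944 with array weights, 121 with the muscle covariate and 1640 when GR-null 17 was left out.

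With the muscle covariate the medians were 0.0705 over all members, 0.0705 for complex I subunits, 0.16 for its assembly factors and 0.026 for complex IV. With the mean of all probe sets complex II was at 0.087. Without _x_at and _s_at sets complex V was at 0.13, and with _at sets alone it was at 0.15, complex I subunits at 0.075 and all members at 0.084. With an array left out the Cox6a2 and Cox6a1 pair ran from -0.12 to 0.026, and the Cox7a1 and Cox7a2 pair from -0.79 to -0.05.

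Signs turned in named genes that were not past the threshold with all arrays. They include differences among the largest of their complexes (Cox7a1, Ndufa5, Atp5g1 and Sdha). Ndufa5 was past it with array weights and without GR-null 17. Under quantile normalization Cox7a2 was at 0.0051, Ndufab1 at 0.0071 and Atp5k at 0.015. Under array weights Ndufaf5 was at -0.061 and Cox7c at 0.0094. With the mean of all sets Cox6a1 was at 0.13, Cox7a2 at 0.079, Sdha at -0.078, Sdhd at -0.025 and Uqcr10 at -0.16. With _at sets alone Cox7a2 was at 0.20, Ndufa5 at 0.064, Ndufaf8 at 0.0795, Uqcr10 at -0.37 and Atp5g1 at -0.24. The _at set of Atp5g1 read only 4.31 to 4.75 log2, far below the set used elsewhere. With the covariate Cox6a2 was at 0.15, Cox7a1 at 0.063, Cox7a2 at 0.084, Cox8b at 0.15, Ndufab1 at 0.26 and Uqcrc1 at -0.0695. With an array left out Ndufab1 ran from -0.11 to 0.074, Ndufaf5 from -0.068 to 0.11, Uqcrc1 from -0.055 to 0.13, Cox7c from -0.071 to 0.11, Atp5k from -0.047 to 0.025 and Cox8b from -0.18 to 0.011.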

Other observations

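In lists of other mitochondrial pathways, calls are set against 1.4% of all genes called higher and 1.56% lower, so that lists of this size would hold 0 to 2 calls at those shares and the counts set none of them apart. Of 17 genes of mitochondrial fatty acid oxidation 1 was called higher and none lower. This was Cpt1a, which loads fatty acids onto carnitine at the outer membrane. Its log2 values were 8.70, 8.64, 8.61 and 8.47 in wild-type skin against 9.0, 9.04, 9.36 and 9.35 without the receptor. The groups did not overlap, and it rose by 0.59 ± 0.11 (SE; limma adjusted p = 0.0301). Slc25a20, the carnitine carrier, read lower by -0.53 ± 0.13 and Echs1 higher by 0.69 ± 0.19, neither past the threshold. Of 76 mitochondrial ribosomal protein genes 1 was called lower, Mrpl11, at 10.06, 10.19, 10.18 and 10.23 against 9.51, 9.88, 9.51 and 9.54. It fell by 0.56 ± 0.10 (SE; limma adjusted p = 0.0262), with GR-null 17 again nearest to the wild-type arrays. Mrpl11 was read at an _x_at set, and of all 687 genes read at that kind 27 were called lower and 2 higher. Mrpl27 (0.42) and Mrps24 (-0.42) were not past the threshold. None of 17 genes of pyruvate dehydrogenase and the citric acid cycle passed, with Suclg2 at 0.24, Ogdh at -0.26 and Dld at 0.21, and none of 9 carriers, porins and creatine kinases. Of these Ckmt2, the muscle-type mitochondrial creatine kinase, read 9.56, 9.21, 9.43 and 9.78 in wild-type and 7.51, 9.11, 8.36 and 7.62 in GR-null 5, 17, 25 and 26, a difference of -1.34 ± 0.32 (SE; limma adjusted p = 0.0603). Slc25a5 was at 0.23 and Ckmt1 at 0.44.

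For lists of other cell types, calls are set against 2.96% of all genes called in either direction, and no list was tested as a set. Of 11 keratinocyte markers 5 read higher and 6 lower, with a median of -0.05, and 2 were called. Trp63 was higher by 0.60 and Lor lower by -0.48, while Ivl at -0.99 was not past the threshold. Of 7 macrophage markers Cd163 was lower by -2.13, while Lyz2 and Adgre1 read 0.51 and 0.30. None of 9 dermal fibroblast, 8 endothelial, 4 erythroid, 10 brown adipocyte or 8 general adipocyte markers passed. The smallest p in these lists were those of Col1a1 (-0.30), Lum (0.30) and Dcn (0.19), of Tek (-0.69), Tie1 (-0.37) and Kdr (-0.27), of Alas2 (-0.63), Slc4a1 (0.44) and Hbb-b2 (-0.37), of Prdm16 (-0.78), Dio2 (-0.71) and Ebf2 (-0.79), and of Lipe (-0.80), Pparg (0.40) and Pnpla2 (-0.43). Of the 39 skeletal muscle markers, those with the smallest p were Tnnt1 (-0.67), Casq2 (-0.90) and Myh3 (-0.55), all lower past the threshold.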
